A study of Mus musculus with 4 samples.

Results

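A set of 760 endothelial nuclei from mouse heart is described here, chosen by the transcripts of Kirrel3, Col13a1, Slco2a1, Lhx6, Vegfc and Kcnc2. Endothelial nuclei had at least 500 unique molecular identifiers (UMIs, 1 per captured RNA molecule), at most 5% of UMIs from mitochondrial genes and under 3% from 7 cardiomyocyte genes (Ttn, Myh6, Ryr2, Tnnt2, Actn2, Mybpc3 and Ctnna3). They also had at least 3 UMIs over 9 endothelial genes (Pecam1, Cdh5, Flt1, Emcn, Tek, Tie1, Ptprb, Cyyr1 and Egfl7) and none of the endocardial gene Npr3, the lymphatic genes Mmrn1, Reln and Prox1, the macrophage gene Csf1r or the fibroblast gene Dcn. Of the 3301 nuclei that met these limits, the 760 with at least 2 UMIs summed over the 6 named genes are called member nuclei below, and the other 2541 are the comparison. The 6 genes and the threshold were taken from expression in these same libraries, so their levels in the member nuclei are a description and carry no test. The series held 41706 barcodes in all, of which 20609 met the UMI and mitochondrial limits.

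The libraries came from whole hearts of tamoxifen-treated mice aged 8 weeks, collected 2 weeks after tamoxifen and read as single nuclei on the BD Rhapsody platform. The 2 control libraries carried the Cre allele titled MCM cre/+ with a genotype label of wt, and the 2 cKO libraries were titled PKP2fl/fl MCM cre/+ with a genotype label of pkp2 cko, a conditional knockout of the desmosome gene Pkp2. All 4 libraries thus shared the Cre allele by title and the tamoxifen, and each library pooled the hearts of 1 male and 1 female mouse, so n = 2 libraries per group. No label names the promoter of the Cre line, and the labelled cell type is cardiomyocyte although the nuclei used here carry endothelial transcripts.

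Endothelium lines every vessel of the heart, and its cells differ along the vascular tree. Capillary cells of heart muscle handle lipid uptake, arterial cells carry Notch-dependent genes and elastin, and venous cells carry the transcription factor Nr2f2 and the adhesion molecules that recruit leukocytes. The endocardium lines the chambers. Of the genes in the rule, Kirrel3 encodes an immunoglobulin-family adhesion protein, Col13a1 a transmembrane collagen, Slco2a1 the prostaglandin transporter, Lhx6 a LIM-homeobox transcription factor, Vegfc a ligand of the receptor Flt4, and Kcnc2 a voltage-gated potassium channel.

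Member nuclei numbered 39 in control 1, 143 in control 2, 138 in cKO 1 and 440 in cKO 2, with 52553, 236584, 245676 and 901972 UMIs in sum. Control 1 was therefore the thinnest sum, on 39 nuclei, and values that rest on it are the least precise. Median UMIs per member nucleus were 1230 and 1433 in control and 1629.5 and 1891.5 in cKO libraries, against 993.5, 1298, 1200 and 1590 in the other endothelial nuclei. Member nuclei were thus deeper in cKO than in control libraries, and within each library deeper than the other nuclei. Between libraries 4 barcodes were shared in all, none of them a member nucleus. Pkp2 did not mark the groups: in nuclei with at least 5% cardiomyocyte UMIs it stood at 565 and 532 CPM (UMIs of the gene scaled to an equal library total) in control and 625 and 593 in cKO libraries, and member nuclei held 3, 9, 15 and 41 of its UMIs. Groups are therefore named by their labels. Esr1, part of which is used in tamoxifen-inducible Cre proteins, stood at 81.7 and 66.8 against 3874 and 3651 CPM in those cardiomyocyte nuclei, and at 362 and 127 against 208 and 181 CPM in member nuclei. Effects of any difference in the transgene and of the Pkp2 alleles cannot be told apart here.

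No rule gene was carried by most members in every library, and the 6 genes marked the nuclei in varied combinations. Vegfc was detected in 384 member nuclei (50.5%), Kirrel3 in 354 (46.6%), Slco2a1 in 237 (31.2%), Lhx6 in 210 (27.6%), Kcnc2 in 191 (25.1%) and Col13a1 in 110 (14.5%). UMIs of a single rule gene brought in 288 nuclei (37.9%), 297 (39.1%) held a pair of the genes, 115 (15.1%) held 3 and 1 nucleus held all 6. Kirrel3 was even across libraries, at 989 and 943 CPM in control and 924 and 1027 CPM in cKO member nuclei. Vegfc varied more between libraries than between groups, at 571 and 769 against 427 and 657 CPM. The remaining member and other levels differed by the rule itself and are not compared.

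Free RNA gives stray UMIs in any nucleus, and the same count in cardiomyocyte nuclei is given as a description. At least 2 rule UMIs were found in 1.67% and 1.92% of control and 1.73% and 1.92% of cKO cardiomyocyte nuclei, at median depths of 3330.5, 4051, 4539.5 and 5446.5 UMIs. In endothelial nuclei, at medians of only 1005, 1329, 1291 and 1673 UMIs, the same limit was met by 13.5%, 20.03%, 18.9% and 28.1%. The share was thus higher in endothelial nuclei of all 4 libraries at a lower depth. The summed level of Kirrel3 in the cardiomyocyte nuclei was 7.43 to 12.2 CPM and that of Vegfc 3.81 to 7.55 CPM.

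Joint detection of the rule genes is given as a description, since the 6 genes were chosen together from these libraries and no other pairs of endothelial genes were compared. After each of 2750 endothelial nuclei with at least 1000 UMIs was thinned to 1000 UMIs, the odds ratio of joint detection, combined over libraries by the Mantel-Haenszel method, ran from 1.27 to 4.45 over the 15 pairs. Col13a1 with Kcnc2 had 4.45 on 16 nuclei with both, and Col13a1 with Vegfc had 4.12 on 27 nuclei. Lhx6 had 1.27 with Kcnc2 and with Col13a1. Counts of joint detection lay between 6 and 73 nuclei, and nuclei under 1000 UMIs (141 and 112 control, 186 and 112 cKO) were left out.

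The levels of 3 rule genes did not overlap between control and cKO member nuclei, with more Slco2a1 and Lhx6 and less Kcnc2 in the latter. Among all genes tested, 19.4% were higher and 17.7% lower in cKO member nuclei without overlap. The count of rule genes was not tested against these shares. Slco2a1 (ENSMUSG00000032548.15, chromosome 9, 102988712 to 103096002) was detected in 15.4% and 16.8% of control and in 37.0% and 35.5% of cKO member nuclei. Its summed level was 152 and 165 against 366 and 334 CPM, and the groups did not overlap. Kcnc2 went the other way, with 28.2% and 34.3% against 21.7% and 22.95% of member nuclei and 590 and 807 against 305 and 316 CPM, again without overlap. Where Kcnc2 did not help to choose the nuclei, its log2 fold change was -0.46 (adjusted p = 0.916 by edgeR) in place of -1.22, and with at least 2 different rule genes per nucleus it was -0.67. Lhx6 stood at 190 and 173 against 248 and 226 CPM. Nuclei with Slco2a1 and no Kcnc2 made up 15.4% and 11.9% of control members and 29.0% and 28.9% of cKO members. Nuclei with Kcnc2 and no Slco2a1 made up 28.2% and 29.4% against 13.8% and 16.4%. Apart from the fit without Kcnc2 in the rule, these are descriptions, since the genes chose the nuclei.

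**Figure D1:**
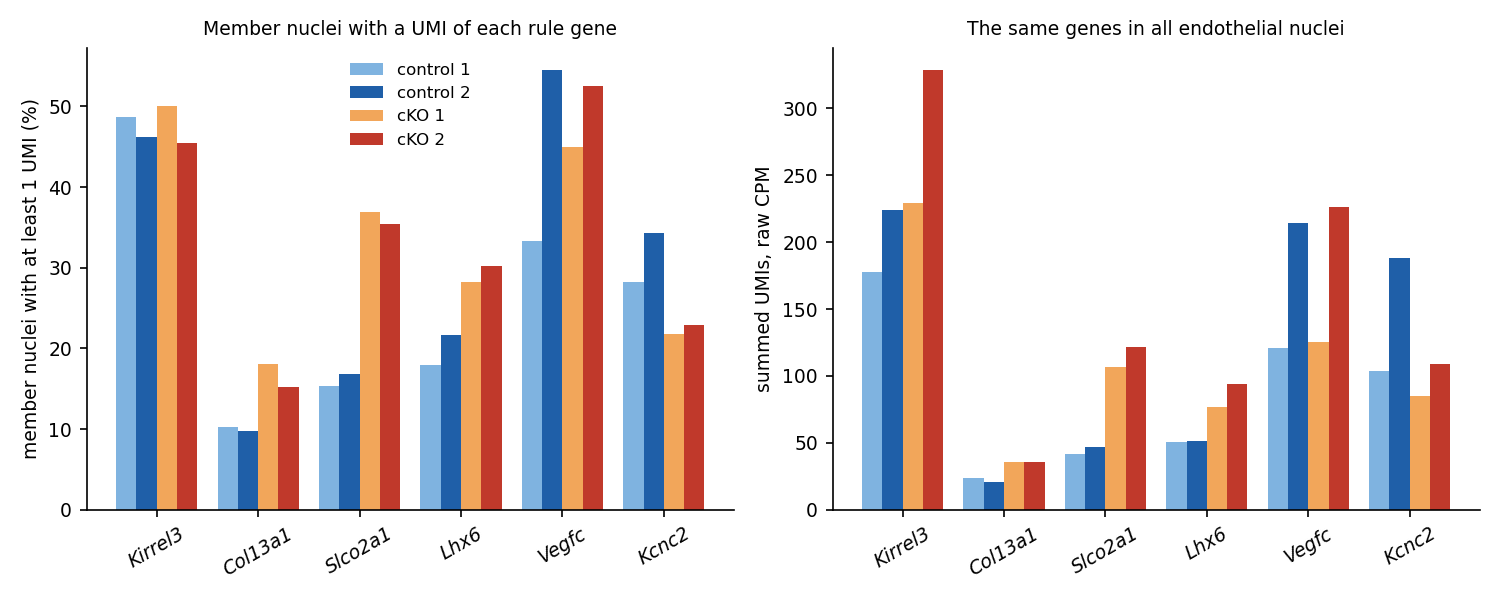
Left, the percentage of member nuclei with at least 1 UMI of each rule gene; right, the level of each gene summed over all endothelial nuclei, in raw CPM. Each bar is 1 library (2 control, 2 cKO) and has no replicate error of its own; Slco2a1 is higher in both cKO libraries in both panels.

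The same genes were also compared in all 3301 endothelial nuclei summed together, which were not chosen by the 6 genes. This fit was added after the data were seen. The genes themselves were picked from these libraries, so their p-values there are not independent support. Slco2a1 rose there, from 42.0 and 49.6 to 106 and 127 CPM after TMM scaling (log2 fold change 1.32, SE 0.26, adjusted p = 0.0372 by edgeR's quasi-likelihood test with Benjamini-Hochberg adjustment over 10677 genes). In that fit 0.15% of genes rose and 0.365% fell. The other 5 rule genes did not pass: Lhx6 had a log2 fold change of 0.72 (adjusted p = 0.358), Col13a1 0.67 (0.549), Kirrel3 0.43 (0.622), Vegfc -0.003 (0.998) and Kcnc2 -0.68 (0.438), all by edgeR. Only 1 of the 6 genes thus passed the threshold in that fit, and the difference between it and the others was not tested.

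Against the other endothelial nuclei of the same library, member nuclei were higher in 6 of 11 venous genes and lower in 8 of 18 basement membrane genes in all 4 libraries. These levels have no test, because the nuclei were chosen on expression. The 6 venous genes were Nr2f2, Vwf, Ephb4, Vcam1, Il1r1 and Plvap, and the median log2 ratio over the 11 with at least 40 UMIs was 1.07. Among all 11136 genes measured, 7.73% were higher in all 4 libraries and 12.9% were lower, with a median of -0.12.

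Vwf, the clotting factor stored in endothelial granules, stood at 362 and 402 CPM in control and 822 and 506 CPM in cKO member nuclei, against 203, 114, 221 and 122 CPM in the other nuclei. Vcam1, a leukocyte adhesion molecule, stood at 95.1, 156, 175 and 235 CPM against 28.0, 33.1, 67.9 and 95.8 CPM. Both were above the other nuclei in every library. Il1r1, the interleukin 1 receptor, stood at 457, 473, 440 and 706 CPM against 217, 196, 206 and 233 CPM. Nr2f2 showed 285, 271, 338 and 299 CPM against 185, 151, 122 and 109 CPM. Ackr1, a chemokine receptor of venules, was nearly absent, at 0 CPM in both controls and 12.2 and 6.65 CPM in the cKO member nuclei.

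Arterial genes did not move as a group: 3 of 15 were higher in all 4 libraries and 3 of 15 lower, with a median log2 ratio of -0.05. Over all genes 7.73% were higher and 12.9% lower. Eln, the gene of elastin, was one of the higher ones, at 590, 782, 1775 and 1492 CPM in member nuclei and 297, 406, 553 and 362 CPM in the others. The other 2 were Stmn2 and Mecom. Cxcl12, Efnb2 and Unc5b were the 3 lower genes. The gap-junction gene Gja4 was low in both kinds of nuclei, at 0 to 24.4 CPM in members and 10.0 to 28.0 CPM in the others.

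Capillary genes gave 1 of 15 higher in all 4 libraries and 3 of 15 lower, with a median of -0.23. The share lower was 20%, as for the arterial list, against 12.9% over all genes. Btnl9 showed the widest gap, at 57.1, 131, 85.5 and 164 CPM in member nuclei against 248, 304, 489 and 526 CPM in the others. Kdr, the main VEGF receptor, stood at 476, 342, 570 and 516 CPM against 717, 471, 969 and 832 CPM. Car4, which encodes a membrane carbonic anhydrase, was the third. Meox2 was the capillary gene that was higher in members. Cd36, a fatty acid transporter, stood at 1741 to 1860 CPM in members and 1504 to 2132 CPM in the others. Gpihbp1, which anchors lipoprotein lipase, stood at 381, 237, 171 and 143 CPM against 294, 249, 285 and 210 CPM, above the others in control 1 alone.

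Basement membrane genes were lower in all 4 libraries for 8 of 18, and angiogenic genes for 5 of 12, with medians of -0.39 and -0.61. Over all genes 12.9% were lower and 7.73% higher, with a median of -0.12. The list counts here were not tested against these shares. Col4a1, a chain of type IV collagen, stood at 438, 380, 647 and 673 CPM in member nuclei and 570, 517, 1293 and 973 CPM in the others. Cell cycle genes were lower for 7 of 13 and higher for 1 of 13. Of the flow-responsive genes, 3 of 8 were higher: Klf2, Klf4 and Nos3, the endothelial nitric oxide synthase. Of 7 endocardial genes measured, 3 were also higher in all 4 libraries. Tmem108 stood at 95.1, 127, 36.6 and 61.0 CPM against 94.4, 97.9, 31.5 and 36.6 CPM, near equal in control 1 on 5 member UMIs. Nfatc1 stood at 114, 123, 102 and 86.5 CPM against 70.0, 103, 83.7 and 80.3 CPM. Cytl1 stood at 95.1, 127, 134 and 34.4 CPM against 70.0, 46.5, 20.6 and 14.6 CPM. Members were thus above the others, in places by little, for part of the endocardial as well as the venous list. They are given no vessel name here.

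**Figure D2:**
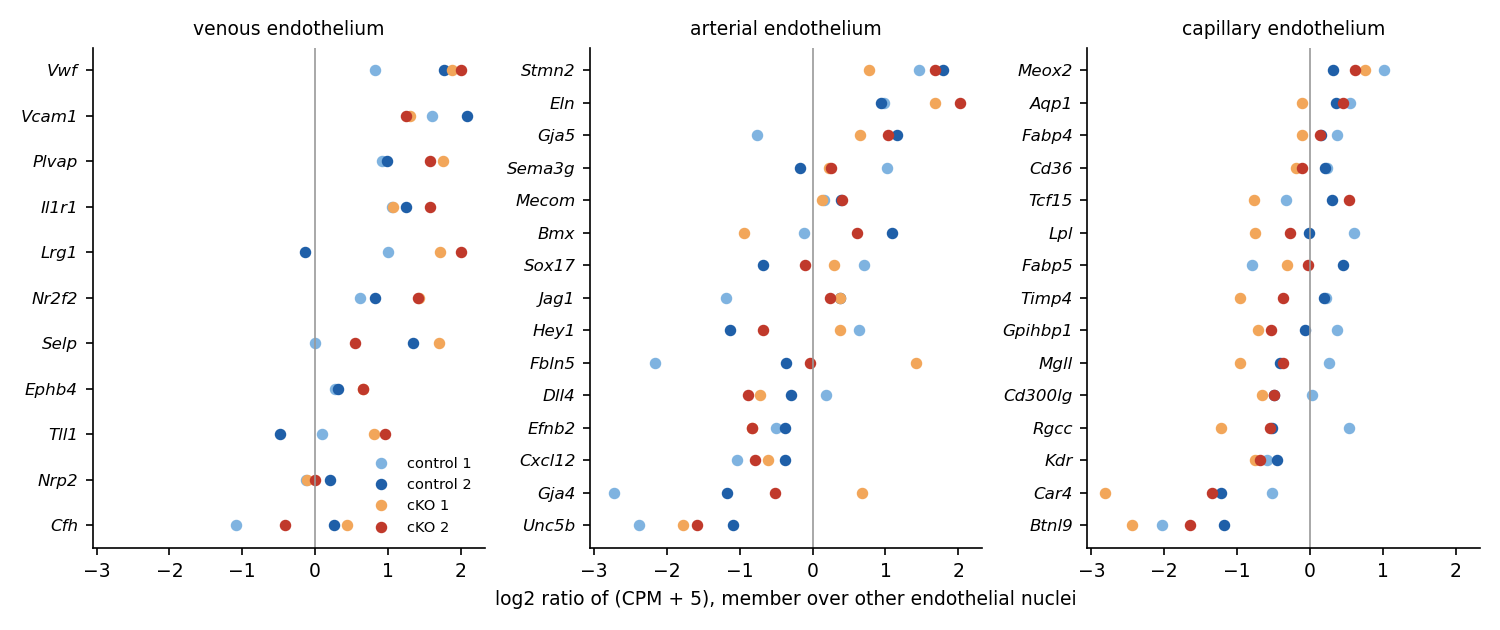
Each point is 1 library: the log2 ratio of raw CPM plus 5 in member over other endothelial nuclei for the venous, arterial and capillary genes with at least 40 UMIs. The 6 venous genes Vwf, Vcam1, Plvap, Il1r1, Nr2f2 and Ephb4 have all 4 points above 0, and Btnl9, Car4 and Kdr all 4 below.

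Outside the lists, the 20 genes with the highest ratio in their lowest library included AU021092, Rab27a, Vstm5 and Me3. Rab27a, a small GTPase of granule exocytosis, stood at 152, 169, 106 and 131 CPM against 45.5, 42.9, 27.9 and 41.6 CPM. More abundant genes of the 20 were Calcrl, the calcitonin receptor-like receptor, at 628, 731, 1119 and 1320.4 CPM against 262, 311, 472 and 464 CPM, and Thsd7a at 837, 740, 643 and 900 CPM against 262, 342, 306 and 324 CPM. Fmo2, a flavin monooxygenase, stood at 780, 592, 611 and 588 CPM against 206, 287, 240 and 252 CPM. Also among the 20 were Pdia5, Vcam1, Rasa4, Nuak1, Adamtsl1, Lbp, Ptpru, D5Ertd615e, Stc1, Fam124a, Il1r1 and Cd59a. In all 20 the lowest library was above the other nuclei by the way they were ranked.

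The 10 genes with the lowest ratio in their highest library included Colec11, Papln, Slc1a1, Bank1, Abcc9, Ednra, Prdm1, Mrc2 and Pde8b. Abcc9, a potassium channel subunit used as a pericyte marker, stood at 76.1, 211, 65.1 and 69.8 CPM in member nuclei against 525, 595, 187 and 275 CPM in the others. The 11 mural markers summed to 285, 778, 285 and 264 CPM in members and 1546, 1441, 644 and 777 CPM in the others. Of the 10 measured, 7 were lower in all 4 libraries, where 12.9% of all genes were lower. Cardiomyocyte markers were detected for 18 of 18 and summed to 7167 to 9476 CPM in members and 8103 to 10434 CPM in the others. Fibroblast markers summed to 264 to 574 CPM against 422 to 911 CPM, and macrophage markers to 326 to 533 CPM against 560 to 939 CPM, with Dcn and Csf1r at 0 by the rule. Lymphocyte markers summed to 0 to 21.1 CPM, with Cd79a and Ms4a1 at 0, and Schwann and neuronal markers to 12.2 to 33.8 CPM, with Sox10 and Snap25 among those at 0. The part of RNA from other cells in the differences above was not tested.

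The threshold of the rule cut through a graded range of Vwf, and less evenly of Btnl9 and Eln. Just outside it, with 1 rule UMI, were 38 and 91 control and 113 and 248 cKO nuclei, and just inside it, with 2 UMIs, were 19, 44, 50 and 119. Vwf stood at 254, 206, 506 and 205 CPM just outside and 377, 377, 755 and 346 CPM just inside. With no rule UMI it stood at 193, 95.5, 142 and 98.1 CPM. Btnl9 stood at 285, 341, 543 and 553 CPM with no rule UMI, 63.5, 118, 292 and 434 CPM with 1 and 83.8, 236, 104 and 198 CPM with 2. Nuclei with 1 rule UMI thus lay between those with 0 and those with 2 for Vwf in all 4 libraries, and for Btnl9 in both cKO libraries. For Eln they lay between in control 1 and both cKO libraries. In control 2 Eln stood at 275, 1067 and 456 CPM with 0, 1 and 2 rule UMIs.

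**Figure D3:**
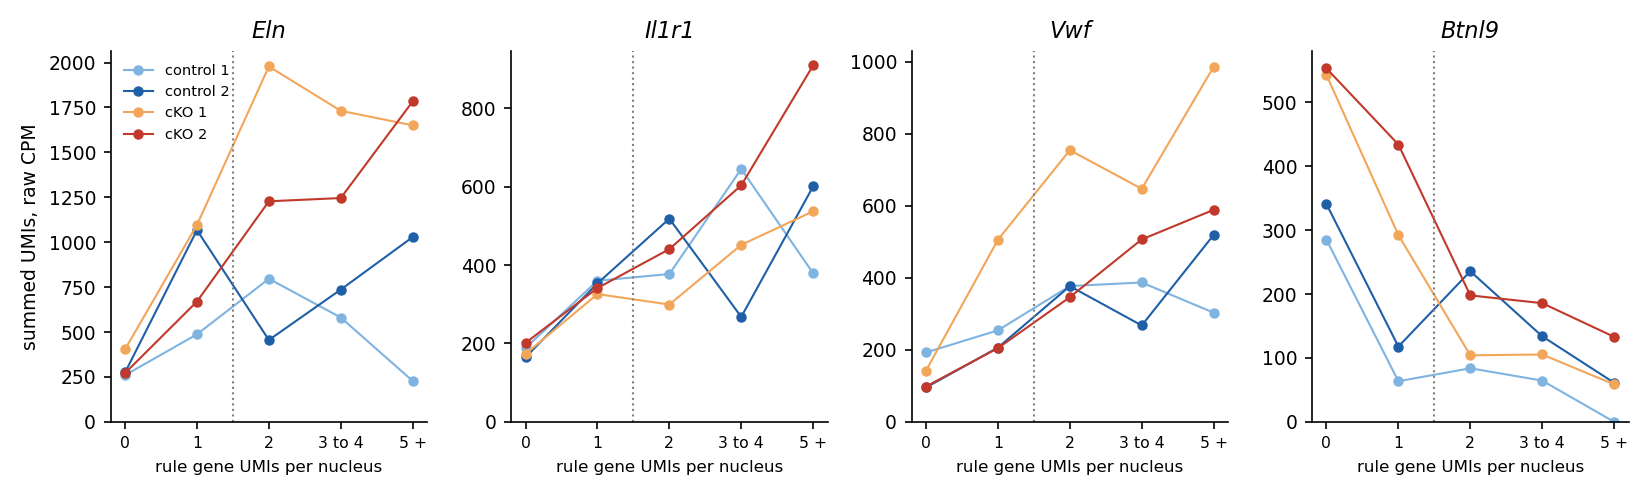
Raw CPM of Eln, Il1r1, Vwf and Btnl9 in endothelial nuclei grouped by their UMIs over the 6 rule genes, with 1 line per library; the dotted line marks the threshold of 2 UMIs. Btnl9 is highest at 0 rule UMIs in all 4 libraries, and Il1r1 and Vwf are lowest there.

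The share of member nuclei among endothelial nuclei overlapped between the groups under the rule as given, and not under some other rules. It was 13.5% and 20.03% in the control libraries (16.8% ± 4.62, SD, n = 2) and 18.9% and 28.1% in cKO libraries (23.5% ± 6.51, SD, n = 2). The log2 ratio was 0.49 and the two-sided exact permutation p was 0.667, where 2 against 2 libraries can give no p below 0.333. Exact 95% binomial intervals, which cover counting error only, were 9.78% to 18.0% and 17.2% to 23.2% in control and 16.1% to 21.9% and 25.9% to 30.4% in cKO libraries. Counted at equal depth the groups were closer: with every nucleus thinned to 500 UMIs the shares were 6.57% and 9.24% against 6.02% and 10.0%. The log2 ratio was then -0.0055 (exact permutation p = 1). With Kcnc2 left out of the rule the shares were 10.4% and 16.1% against 17.4% and 25.2%, which did not overlap (log2 ratio 0.69). With at least 2 different rule genes they were 6.57% and 11.2% against 11.9% and 18.3%, again without overlap (0.78), both at the smallest possible exact permutation p of 0.333. Neither of these other rules was counted at equal depth, since only the rule as given was thinned. As a share of all nuclei past the UMI and mitochondrial limits, members made up 1.30% and 2.23% in control and 3.54% and 6.03% in cKO libraries, a log2 ratio of 1.44 at the smallest possible exact permutation p of 0.333. That denominator moves with the numbers of all other cell classes and with the sort of nuclei.

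**Figure D4:**
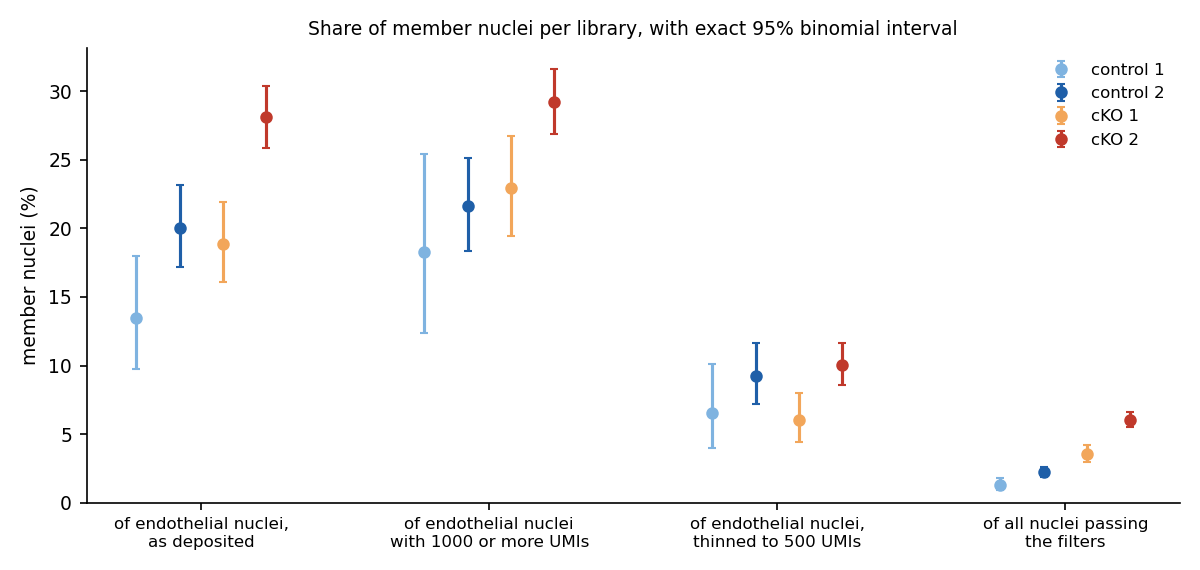
Points are the percentage of member nuclei in each library and bars are exact 95% binomial intervals, under 4 denominators. The groups overlap among endothelial nuclei as deposited and after thinning to 500 UMIs, and do not overlap with at least 1000 UMIs per nucleus or over all nuclei.

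Within member nuclei, 3 genes fell in cKO libraries and none rose past the threshold. They were Timp4, an inhibitor of matrix metalloproteinases, Serpini1, which encodes the protease inhibitor neuroserpin, and Gucy1a2, a subunit of the nitric oxide receptor guanylate cyclase. Of 5230 genes tested by edgeR's quasi-likelihood test, 0% passed upward and 0.0574% downward at an adjusted p under 0.05. Timp4 and Serpini1 met the expression filter, 41.5 CPM in at least 2 libraries, through the control libraries only. In cKO libraries Timp4 stood at 32.6 and 41.0 raw CPM and Serpini1 at 16.3 and 18.8. A higher value in control was thus a condition of their being tested. Gucy1a2 also met it in cKO 2, and cKO 1 fell short at 40.7 raw CPM. Both controls but not both cKO libraries met it for 368 of the 5230 genes, these 3 among them. At an unadjusted p under 0.05 there were 364 genes (6.96%), 193 of them higher and 171 lower, and DESeq2 called 0 higher and 1 lower. The p-values rest on the spread between 2 pools per group, with each gene's estimate drawn toward a trend over all genes.

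Timp4 (ENSMUSG00000030317.9, chromosome 6, 115241892 to 115252205) had 306 and 268 CPM after TMM scaling in control and 37.4 and 47.7 CPM in cKO libraries, on 14, 54, 8 and 37 UMIs. Both cKO libraries lay far below both controls. The means were 287 ± 27.1 and 42.5 ± 7.29 CPM (SD, n = 2), the log2 fold change was -2.64 (SE 0.36) and the adjusted p by edgeR was 0.00596. Timp4 fell in the other endothelial nuclei too (-1.81, SE 0.25, adjusted p = 0.0156 by edgeR), and the difference between the 2 effects did not pass (-0.78, adjusted p = 0.999). Without control 2 its adjusted p was 0.0561, by edgeR, at a log2 fold change of -2.71.

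Serpini1 (ENSMUSG00000027834.16, chromosome 3, 75557547 to 75643495) had 153 and 164 CPM in control and 18.7 and 21.9 CPM in cKO libraries, on 7, 33, 4 and 17 UMIs. The groups did not overlap. The log2 fold change was -2.91 (SE 0.47, adjusted p = 0.0265 by edgeR). In the other endothelial nuclei it stood at 90.9 and 69.8 against 35.2 and 74.8 raw CPM, which overlap, with a log2 fold change of -0.42 (adjusted p = 0.765 by edgeR). The difference between the effects was itself past the threshold (-2.66, SE 0.52, interaction adjusted p = 0.0068 by edgeR over 9646 genes). The interaction adjusted p was 0.543 without control 2, 0.227 without cKO 1 and 1 without cKO 2, by edgeR. In members the log2 fold change without control 2 was -2.79 (adjusted p = 0.529 by edgeR), and with DESeq2 it was -2.96 (adjusted p = 0.0924).

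Gucy1a2 (ENSMUSG00000041624.11, chromosome 9, 3532778 to 3894736) had 262 and 347 CPM in control and 46.7 and 92.8 CPM in cKO libraries, on 12, 70, 10 and 72 UMIs. The log2 fold change was -2.05 (SE 0.36, adjusted p = 0.042 by edgeR). It fell in the other nuclei as well, by 1.72 on the log2 scale (adjusted p = 0.0389 by edgeR). Guanylate cyclase of this kind is also known from mural cells, and the summed mural markers in members were 285 and 778 against 285 and 264 CPM. Their part in the result was not tested. The log2 fold change was -1.71 without control 2 (adjusted p = 0.451) and -1.73 without cKO 1 (0.0828), by edgeR, and -2.10 with DESeq2 (adjusted p = 0.11).

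The next smallest p-values belonged to genes that missed the threshold. Rasa4, a Ras GTPase-activating protein, had 415 and 357 CPM against 1140.2 and 986 CPM (log2 fold change 1.49, SE 0.28, adjusted p = 0.0586 by edgeR). Slc28a2, a nucleoside transporter, had 962 and 729 against 257 and 333 CPM (-1.45, adjusted p = 0.0722 by edgeR). Neither pair of groups overlapped. Lrg1, Selp, Cd38 and Fosl2 were close to 0 UMIs in the controls. They met the expression filter, 41.5 CPM in at least 2 libraries, through the cKO libraries only, as did 19.9% of all genes tested. A higher value in cKO was thus a condition of their being tested. Lrg1, a secreted glycoprotein, had 1 and 2 UMIs in control and 44 and 88 in cKO libraries, a ratio of pooled CPM of 11.1 (95% counting interval 3.71 to 54.4, adjusted p = 0.0586 by edgeR). Selp, the leukocyte adhesion molecule P-selectin, had 0 and 4 against 23 and 114 UMIs (ratio 8.63, interval 3.29 to 32.1, adjusted p = 0.0781 by edgeR). Cd38, an enzyme that consumes NAD, had 0 and 1 against 26 and 60 UMIs, and the AP-1 factor Fosl2 0 and 1 against 12 and 104, both at an adjusted p of 0.0781 by edgeR. The tenth gene has only a clone name. The named genes that missed the threshold moved the same way in the other endothelial nuclei. Selp passed there, with a log2 fold change of 4.40 (adjusted p = 0.0452 by edgeR), on 0 and 3 control against 21 and 170 cKO UMIs. Slc28a2 passed too (-1.09, adjusted p = 0.0495 by edgeR). Rasa4 had 0.87, Lrg1 1.85, Cd38 1.08 and Fosl2 1.70 there and did not pass. The difference between the effects passed for none of them.

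**Figure D5:**
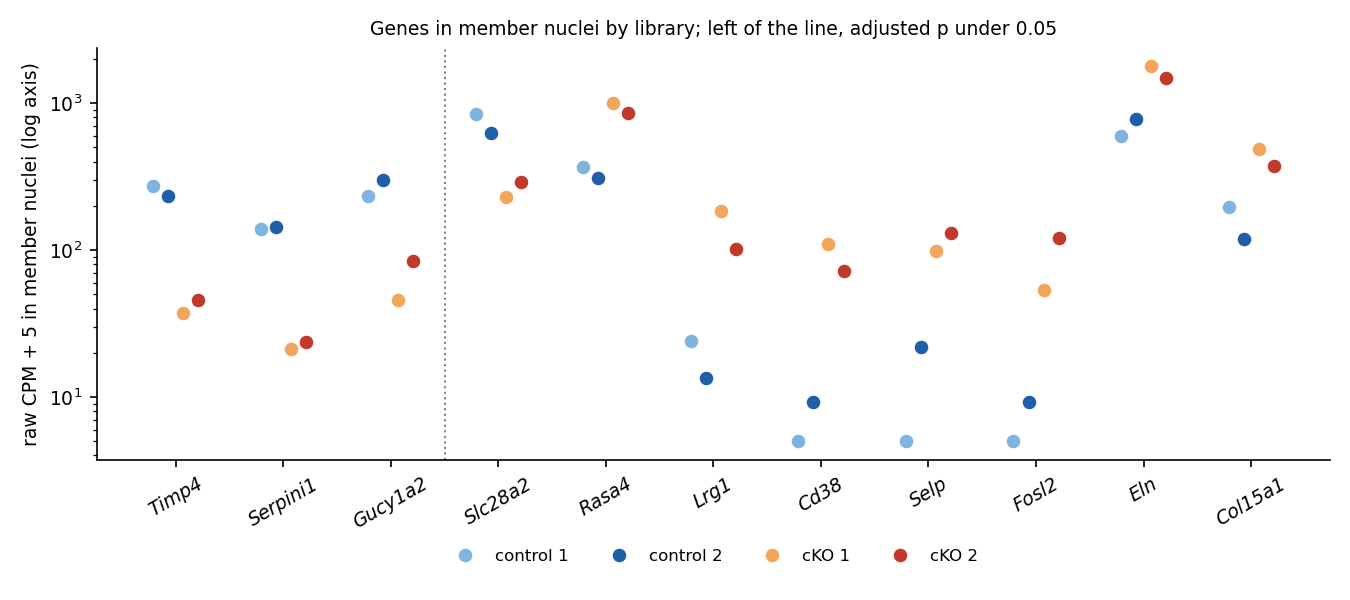
Raw CPM plus 5 on a log axis in member nuclei of each library (2 control, 2 cKO) for the 3 genes past the threshold, left of the dotted line, and 8 others with adjusted p between 0.0586 and 0.0973. The libraries of the groups do not overlap for any of the 11 genes shown, which were chosen by small p. Over all genes tested 19.4% were higher and 17.7% lower without overlap. Lrg1, Cd38, Selp and Fosl2 met the expression filter through the cKO libraries only. Timp4 and Serpini1 met it through the control libraries only.

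By vessel type, none of 11 venous genes tested passed. Groups did not overlap for 8 of the 11, all with higher values in cKO, where the background was 19.4% of all genes higher and 17.7% lower. The median log2 fold change was 0.74, against 0.005 over all genes. Of the 8, Lrg1, Selp and Tll1 met the expression filter, 41.5 CPM in at least 2 libraries, through the cKO libraries only, so a higher value there was a condition of their being tested, as for 19.9% of all genes tested, and neither the count nor the median is evidence about the list. Tll1, a metalloprotease, had a log2 fold change of 2.16 (adjusted p = 0.297 by edgeR), Ephb4, the venous ephrin receptor, 0.78 (0.523), Vwf 0.74 (0.596) and Nr2f2 0.19 (0.979). Over all endothelial nuclei Nr2f2 had -0.17. Arterial genes gave 4 of 9 without overlap, all higher, with a median of 0.77 and none past the threshold; 1 of the 4 met the filter through the cKO libraries only. Eln was the largest of them, at 678 and 917 against 2037 and 1735 CPM (1.19, SE 0.26, adjusted p = 0.0973 by edgeR), and its effect exceeded that in the other nuclei by 0.93 (interaction adjusted p = 0.0611 by edgeR), short of the threshold.

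Capillary genes had 1 of 15 past the threshold, Timp4, which fell. Groups did not overlap for 5 lower and 2 higher genes, where 17.7% of all genes were lower and 19.4% higher. The median was -0.39, and 2 of the 15 met the filter through the control libraries only, Timp4 among them. Gpihbp1 had 437 and 278 against 196 and 166 CPM (log2 fold change -0.88, adjusted p = 0.523 by edgeR), and Car4 had 175 and 94.2 against 28.0 and 55.4 CPM (-1.32, 0.523). Meox2 and Lpl were the other 2 lower genes. Of 4 endocardial genes tested none passed, with a median of -0.66, and 2 of them met the filter through the control libraries only. Tmem108 had -1.17 (adjusted p = 0.521 by edgeR).

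Matrix and signalling genes showed single members with small p and none past the threshold. Over all genes tested 19.4% were higher and 17.7% lower without overlap, and the list counts here were not tested against these shares. Of 16 basement membrane genes, 7 were higher without overlap and 1 lower, with a median of 0.34. Col15a1, a basement membrane collagen, had 219 and 134 against 556 and 432 CPM (1.64, SE 0.35, adjusted p = 0.0834 by edgeR). Sparc, a collagen-binding matrix protein, had 393 and 263 against 1000.01 and 588 CPM (1.36, adjusted p = 0.182 by edgeR). Both rose in the other endothelial nuclei as well, Col15a1 by 1.17 (adjusted p = 0.0562 by edgeR) and Sparc by 1.16 (0.0495). The difference between the effects did not pass for either. Of 17 genes of the TGF-beta and BMP pathway, 8 were higher without overlap and 1 lower, with a median of 0.44; 6 of the 17 met the filter through the cKO libraries only, 2 of the 8 among them. The inhibitory Smad6 had 43.7 and 29.7 against 140 and 137 CPM (2.06, adjusted p = 0.164 by edgeR), the receptor Bmpr2 0.80, its target Id3 0.79 and the ligand Bmp6 -0.64. In prostaglandin handling, 5 of 17 genes were tested and none passed. Besides Slco2a1, a gene of the rule, Abcc4, an exporter of prostaglandins and cyclic nucleotides, had 1, 21, 47 and 184 UMIs (1.44, adjusted p = 0.31 by edgeR).

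Other lists gave little. None of 11 Notch genes, 12 interferon genes, 12 antigen presentation genes, 7 immediate early genes or 12 glucocorticoid genes passed, and the medians were -0.03, 0.37, 0.21, 0.35 and 0.08. Of 10 endothelial activation genes none passed, with 5 higher, 2 of them tested through the cKO libraries only, and 1 lower without overlap. Over all genes tested 19.4% were higher and 17.7% lower without overlap. In the VEGF and angiopoietin pathway none of 10 passed; the receptor Kdr had 0.47 and Flt1 0.38 on the log2 scale. Of the markers of other cells none passed. Among 18 cardiomyocyte markers 7 were lower in cKO without overlap and 1 higher, where 17.7% of all genes were lower, with a median of -0.11, and their sum was 9476 and 7997 against 7868 and 7167 CPM. Of 3 mural markers 2 were lower without overlap, Abcc9 at -1.35 (adjusted p = 0.316 by edgeR) and Notch3 at -1.21 (0.523). Of 3 fibroblast markers 1 was higher without overlap, with a median of 0.57, and of 3 macrophage markers none was without overlap, with a median of -0.18. Their part in the results above was not tested.

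The cKO effect differed between member and other endothelial nuclei for 2 of 9646 genes, 0.0104% in each direction. One was Serpini1, above. The other was Slit2, the secreted ligand of Robo receptors (ENSMUSG00000031558.16, chromosome 5, 47983138 to 48307733), with 0 and 0 UMIs in control and 6 and 38 in cKO member nuclei, against 9 and 39 and 14 and 49 UMIs in the other nuclei. Against a floor of 3 counts over the control members, Slit2 was at least 3.7-fold higher in cKO members. In the other nuclei the log2 fold change was -0.96 (adjusted p = 0.407 by edgeR). The interaction had an adjusted p of 0.0376 by edgeR, and of 0.663 without control 2, 0.227 without cKO 1 and 1 without cKO 2. Slit2 was too low for the expression filter of the fit within member nuclei.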

How the data were processed

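Single-nucleus RNA was read in 4 libraries, grouped by their titles. The authors deposited raw UMI counts, whole numbers for each gene in each nucleus, per the file headers. Deposited gene identifiers and barcodes carry other, non-numeric entries. The submitters' processing notes name mm10 as the build. For alignment, counting, strand and the calling of nuclei, the tools are not given in the sources. Overlapping, antisense and near-identical genes may share UMIs. Of 44628 gene identifiers 27169 matched GENCODE M21 (GRCm38), from which coordinates were taken.

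Counts were summed per library, since nuclei are not replicates. Sums over member nuclei entered the quasi-likelihood test of edgeR 4.0.16 under R 4.3.3, with TMM scaling, the expression filter and Benjamini-Hochberg adjustment at 0.05. The interaction used 8 sums with library as a block. SE was obtained by dividing the size of the log2 fold change by the root of the F statistic. Raw CPM divides by the summed UMIs; log2 ratios of levels add 5 CPM, and 40 UMIs were required. Shares were compared by exact permutation with scipy 1.17.1. DESeq2 1.42.0 was an alternative. No doublet caller was run; nuclei with no UMI of other cell types were an alternative. The fits were tested on simulated data.

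The member rule and the 30 gene lists were chosen with earlier results of these data known. Named genes were those past the threshold, the 10 with the smallest p, up to 4 per list by p, and the 20 highest and 10 lowest by level; clone names were not named, and a few genes the rule takes are not reported here. Vwf, Nr2f2 and the other list genes given only as values were chosen after their values were seen.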

Additional observations from a re-analysis of the deposited data

Results flagged for a closer look

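The cKO effect differed between member and other endothelial nuclei for 2 genes, by edgeR's interaction test. For Serpini1 the log2 fold change in member nuclei minus that in the others was -2.66 (adjusted p = 0.0068), with 7, 33, 4 and 17 UMIs in control 1, control 2, cKO 1 and cKO 2. For Slit2 the member nuclei held 0, 0, 6 and 38 UMIs and the other nuclei 9, 39, 14 and 49 (adjusted p = 0.0376). Both calls were lost without control 2 (0.543 and 0.663), without cKO 1 (0.227 for both) and without cKO 2 (1 for both), and with DESeq2 (1 for both).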

How the results depend on the processing

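Of 33 genes followed in member nuclei, which include each named there with a fold change, 32 had the same sign in all alternatives where they were tested, and Nr2f2 changed sign over all endothelial nuclei (-0.17 against 0.19); of 543 such values 475 kept sign and side of the threshold, 58 passed it newly and 9 lost it. Genes higher and lower in member nuclei, 0 and 3 by edgeR, were 0 and 1 with DESeq2 and with nuclei that hold no UMI of other cell types. They were 7 and 6 with library totals in place of TMM, 5 and 8 without the expression filter, 2 and 6 with at least 2 different rule genes, 9 and 7 under 1% cardiomyocyte UMIs, and 16 and 39 over all endothelial nuclei, an alternative added after the data were seen. With at least 1000 UMIs per nucleus 1 was higher. The cause of these changes was not tested. Leaving out 1 library gave 0 to 15 higher and 1 to 14 lower, where the group left with 1 library is assumed to vary like the other. Samples with the same replicate number had deviations correlated at r = 0.19 over 5230 genes; with 2 pairs this does not pair them, and the fit with the replicate block called 14 higher and 11 lower. For the interaction, 1 higher and 1 lower, both counts were 0 with DESeq2, with no library block, with at least 3 rule UMIs and with no UMI of other cell types. The higher count was also 0 with RLE factors, with at least 2 different rule genes and with at least 1000 UMIs, and 2 with library totals; the lower count was also 0 under 1% cardiomyocyte UMIs. Left-out libraries gave 0 to 1 higher and 0 to 2 lower. The log2 ratio of shares was 0.49, 0.20 to 0.77 over left-out libraries and -0.0055 after thinning to 500 UMIs. It was 0.78 with at least 2 different rule genes, 0.69 without Kcnc2 in the rule and 0.68 with at least 3 rule UMIs. Only the rule as given was thinned. At most 1% mitochondrial UMIs gave no value, as control 2 then held 0 member nuclei. Control 1, with 39 member nuclei and 52553 UMIs, limits the depth of every comparison between groups.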
